A study of Bubalus bubalis with 2 samples.

Results

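Olfactory receptors are odorant-binding G protein-coupled receptors, and they make up the largest gene family of mammals. Each olfactory sensory neuron of the nose uses 1 of these genes and leaves the others silent. The receptor acts through the G protein subunit GNAL and the adenylyl cyclase ADCY3, and the cyclic AMP that forms opens a channel built from CNGA2, CNGA4 and CNGB1. Their coding regions mostly lie on 1 exon, so a locus span is close to the coding length, and in most tissues outside the nose these genes are little transcribed. The family therefore gives a set of short loci, spread over many chromosomes, that saliva is not known to express.

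The data were RNA sequencing libraries of cell-free total RNA from the saliva of water buffalo (Bubalus bubalis) of the Murrah dairy breed. There was 1 library from estrus, when the female accepts mating, and 1 library from diestrus, when the corpus luteum is active. No treatment is recorded, and the number, age and pooling of the animals are not given in the sources used here. Of the 20905 rows of the deposited gene table, 134 were described as an olfactory receptor, and these are the rows reported here. They were chosen by their description and not by their values. Each stage has a single library and hence no measure of the spread between animals, so every difference below describes these libraries, has no replicate check and was given no test.

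Values were FPKM (fragments scaled to transcript length and to mapped fragments), and their low values show the depth. On loci of 400 to 3000 bp many low values were whole multiples of a fixed step once a set length, 183 bp in estrus and 186 bp in diestrus, was taken off the span. The span less this length is called the effective length here. The step, taken as 1 fragment per kb of effective length, was 0.233 FPKM for estrus and 1.25 FPKM for diestrus, which makes the estrus library 5.36 times as deep by the authors' scaling. If each library was scaled to its own total, the totals were 4294580 fragments for estrus and 801559 for diestrus, but the authors' tool can rescale totals. Markers of the labelled source were in part at 0. Of 8 rows listed for salivary secretions 2 were above 0 in estrus and 1 in diestrus. The cystatin CST6 stood at 4786 (estrus) against 1471 FPKM (diestrus), but it is not particular to saliva. No other row of this list was above 0 in diestrus. The protease inhibitor SLPI stood at 19.3 FPKM in estrus and was listed at 0 in diestrus. The amylase AMY2B and the gland water channel AQP5 were listed at 0 in both. Of 14 rows of oral squamous epithelium 7 were above 0 in estrus and 9 in diestrus, with the keratin KRT6A at 30046.5 (estrus) against 323 FPKM (diestrus) and the keratin KRT14 at 0.124 against 223 FPKM, and all 12 fibroblast rows were above 0 in both.

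Nearly all olfactory receptor rows were listed at 0. In the estrus library 1 of 134 was above 0 (0.746%), against 40.3% of all rows. In the diestrus library 3 of 134 were above 0 (2.24%), against 45.4% of all rows. No receptor row was above 0 in both libraries, against 7344 of all 20905 rows, and 130 were listed at 0 in both, against 10334 of all rows. With only 1 and 3 receptor rows above 0, the lack of overlap is not read as a result. Each of the 4 rows above 0 stood above 1 FPKM, so the counts at or above 1 FPKM were also 1 in estrus and 3 in diestrus. A listed 0 is not read as absence, because an exact 0 can be a failed estimate: of 82 rows with the symbol of a cytosolic ribosomal protein, needed by every cell, 33 were at 0 in estrus and 27 in diestrus, and 27 were at 0 in both.

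OR52B2, a receptor of family 52 on chromosome 15 (47491602 to 47492582, a span of 981 bp or 327 codons), was the estrus row. It stood at 7.79 FPKM in the estrus library and was listed at 0 in the diestrus library. On its effective length the estrus value equals 26.7 fragments, which is not a whole number. At the same FPKM the diestrus library would hold 4.97 fragments on this locus, and 3 fragments there would be 4.71 FPKM. The listed estrus value was thus 1.66 times the worth of the 3 fragments that a count of 0 in the diestrus library allows. This holds as far as the listed 0 stands for no fragment. No counting error was set on the estrus value, so the figure is not a lower limit. The row was also picked for being above 0 in estrus, so no stage difference is read from it. Such limits cover counting error only, since reads made by PCR without molecular identifiers are not independent molecules.

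OR56A5, the only family 56 row among the 134, lay on chromosome 15 (47629006 to 47629947, a span of 942 bp or 314 codons). It was listed at 0 in the estrus library and stood at 1.65 FPKM in the diestrus library. OR51D1, of family 51 on chromosome 15 (51023572 to 51024546, a span of 975 bp or 325 codons), was listed at 0 in estrus and stood at 1.58 FPKM in diestrus. OR13C3, of family 13 on chromosome 8 (96041004 to 96042035, a span of 1032 bp or 344 codons), was listed at 0 in estrus and stood at 1.47 FPKM in diestrus. These 3 rows were thus above 0 only in the diestrus library, at a level about that of a single fragment.

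The values of the 3 diestrus rows fell as the span grew, which FPKM scaling gives by itself where rows rest on the same number of fragments. FPKM times span in kb ran between 1.52 and 1.55, a spread of 2.17%, whereas FPKM times effective length differed by 0.0217% at most. Each row came to 1 fragment within 0.2%. These rows were among the loci from which step and length were read, and without any receptor row the diestrus length was again 186 bp. The exact Poisson 95% interval of 1 fragment is 0.0253 to 5.57 fragments, which for OR56A5 is 0.0418 to 9.19 FPKM. That interval covers counting error only and holds the FPKM of OR52B2 in the estrus library. At its diestrus FPKM each of these loci would hold 5.38 fragments in the deeper estrus library, where all 3 were listed at 0. These loci were picked for being above 0 in diestrus, each on 1 fragment, so no stage difference is read from that figure.

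**Figure D1:**
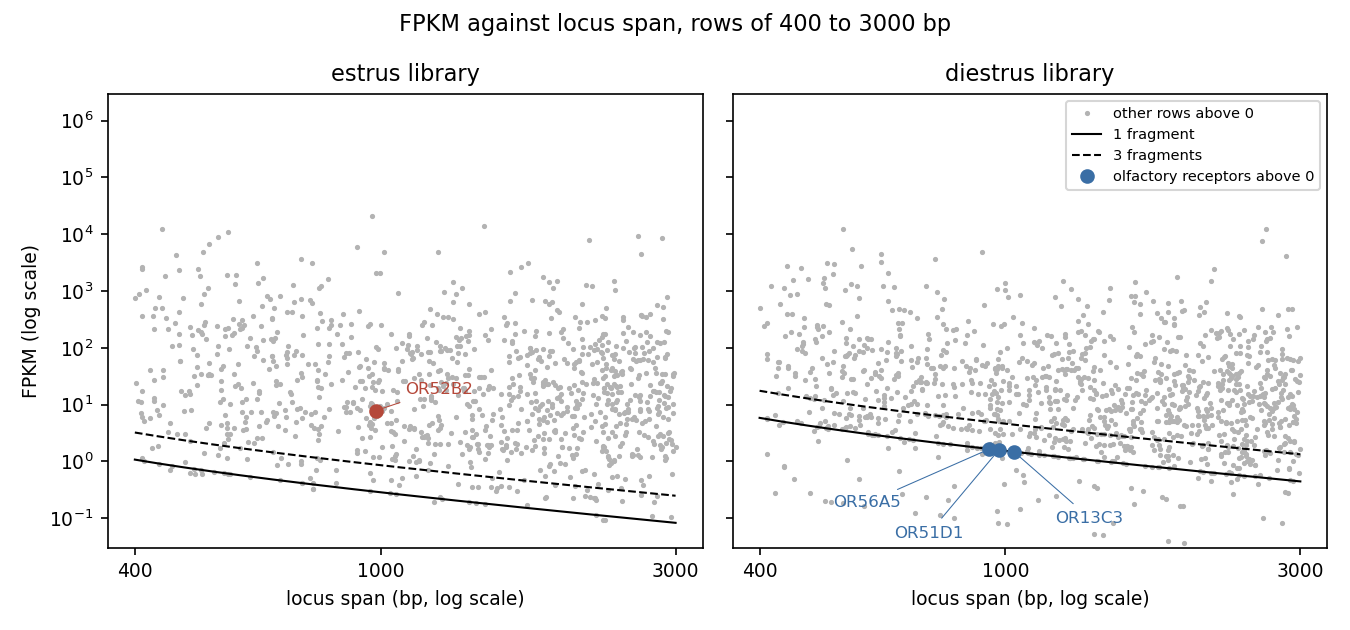
FPKM (log scale) against locus span in bp (log scale) for rows of 400 to 3000 bp above 0, in the estrus library (left) and the diestrus library (right), with lines at the worth of 1 and of 3 fragments. Large points are olfactory receptors: OR52B2 lies well above both lines at 7.79 FPKM in estrus, and OR56A5, OR51D1 and OR13C3 lie on the line of 1 fragment in diestrus.

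The same steps give the level that a receptor row could show. For the median span of 951 bp, 1 fragment was worth 0.303 FPKM in estrus, against 1.63 FPKM in diestrus. The worth of 3 fragments was 0.910 FPKM in estrus, against 4.89 FPKM in diestrus. Over the 131 receptor rows with spans up to 3000 bp, 1 fragment was worth between 0.113 and 0.543 FPKM in estrus, against 0.608 to 2.93 FPKM in diestrus. No receptor row in either library lay between 0 and 1 FPKM. Single fragments were seen at other loci of both libraries. Of rows of 400 to 3000 bp above 0, 21 of 1075 lay within 5% of 1 fragment in estrus and 73 of 1237 in diestrus, and 7.91% of them in estrus and 24.9% in diestrus rested on fewer than 3 fragments.

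Summed over the family, the level was low in both libraries. The 134 rows summed to 7.79 FPKM in estrus, which is 0.000767% of all FPKM, and to 4.71 FPKM in diestrus, which is 0.000902%. Pooled over the 131 rows up to 3000 bp, the level was 0.0592 FPKM in estrus, all of it from OR52B2. In diestrus the pooled level was 0.0358 FPKM from 3 fragments, with an exact Poisson 95% interval of 0.00738 to 0.105 FPKM. The other 130 of these rows were at 0 in estrus, and 3 fragments over all of them, the most that a count of 0 allows, would be 0.0067 FPKM. This limit holds only as far as the listed zeros stand for no fragments. The mean over all 20905 rows was 48.6 FPKM in estrus, against 24.9 FPKM in diestrus.

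Set against rows of every span, OR52B2 stood near the middle of those above 0 and the diestrus receptors low. In estrus 52.0% of the 8424 rows above 0 stood at or under the 7.79 FPKM of OR52B2, against a median of 6.996 FPKM. In diestrus 24.6% of the 9491 rows above 0 stood at or under the 1.65 FPKM of OR56A5, against a median of 5.73 FPKM. At spans of 800 to 1200 bp the medians above 0 were higher. For other rows with a symbol they were 18.1 FPKM in estrus and 14.5 FPKM in diestrus. For rows with only an Ensembl identifier they were 16.9 FPKM in estrus and 10.5 FPKM in diestrus. OR52B2 stood under both estrus medians.

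Between the stages, 1 receptor row was at least 2-fold higher in estrus and 3 were at least 2-fold lower, on the log2 scale with 1 FPKM added to each value, which understates the change of low genes. Of all 20905 rows, 13.4% were past that fold towards estrus, 15.4% towards diestrus and 28.8% in either direction. At 4-fold, 1 receptor row was higher in estrus (6.65% of all rows) and 0 were lower (7.32% of all rows). Every one of the 4 was listed at 0 in 1 library, and 3 of them rested on 1 fragment, so no fold change is given for them on this scale. A mean of at least 1 FPKM was met by 8269 rows, of which 31.3% were past 2-fold towards estrus and 33.1% towards diestrus. OR52B2 was the only receptor row to meet it, through its estrus value alone, so that its direction there was fixed by the filter. The median log2 ratio was 0 over the 134 receptor rows and 0 over all rows. In the authors' deposited table all 134 receptor rows had a p-value of 1 and none was called, and 94.0% of all rows had a p-value of 1.

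The family was compared with rows of the same length, because the share above 0 changed with span: it was 11.3% in estrus and 13.98% in diestrus for all rows of 800 to 1200 bp, and 47.4% in estrus and 52.0% in diestrus for rows of 3000 to 10000 bp. The receptor spans had a median of 951 bp with quartiles of 939.75 and 966 bp. Multiples of 3, as coding regions on 1 exon are, made up 124 of 134 (92.5%), against 39.0% of all rows. At 800 to 1200 bp these shares were 96.7% of receptors, 70.4% of other rows with a symbol and 74.7% of Ensembl rows. Of the 134 rows 123 spanned 800 to 1200 bp, and these held all 4 rows above 0. The others were OR10A6 at 612 bp and 10 longer rows, of which OR51I1 (3116 bp), OR12D2 (3853 bp) and OR10A4 (28020 bp) were the longest. The span of OR10A4 is also that of another row, so it can be a merged span, although it is counted among the 124. All 11 rows outside 800 to 1200 bp were listed at 0 in both libraries.

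Among other rows with a gene symbol and a span of 800 to 1200 bp, 69 of 260 (26.5%) were above 0 in estrus and 86 (33.1%) in diestrus. The receptors of that span had 1 of 123 (0.813%) in estrus and 3 of 123 (2.44%) in diestrus. Rows that carry only an Ensembl cattle identifier, all described as pseudogenes, lay between as a whole, with 107 of 1177 (9.09%) above 0 in estrus and 130 (11.0%) in diestrus, and their share differed with distance from the receptors. Within 100 kb of a receptor row 3 of 305 (0.984%) were above 0 in estrus and 2 (0.656%) in diestrus, whereas farther away 104 of 872 (11.9%) were in estrus and 128 (14.7%) in diestrus. Of 80 rows with a symbol within 100 kb of a receptor, of any span, 33 (41.2%) were above 0 in estrus and 40 (50.0%) in diestrus. The table gives the Ensembl rows no gene name, so how many are receptor genes is not known. No test was made of these shares, and neighbouring loci are not independent of each other.

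**Figure D2:**
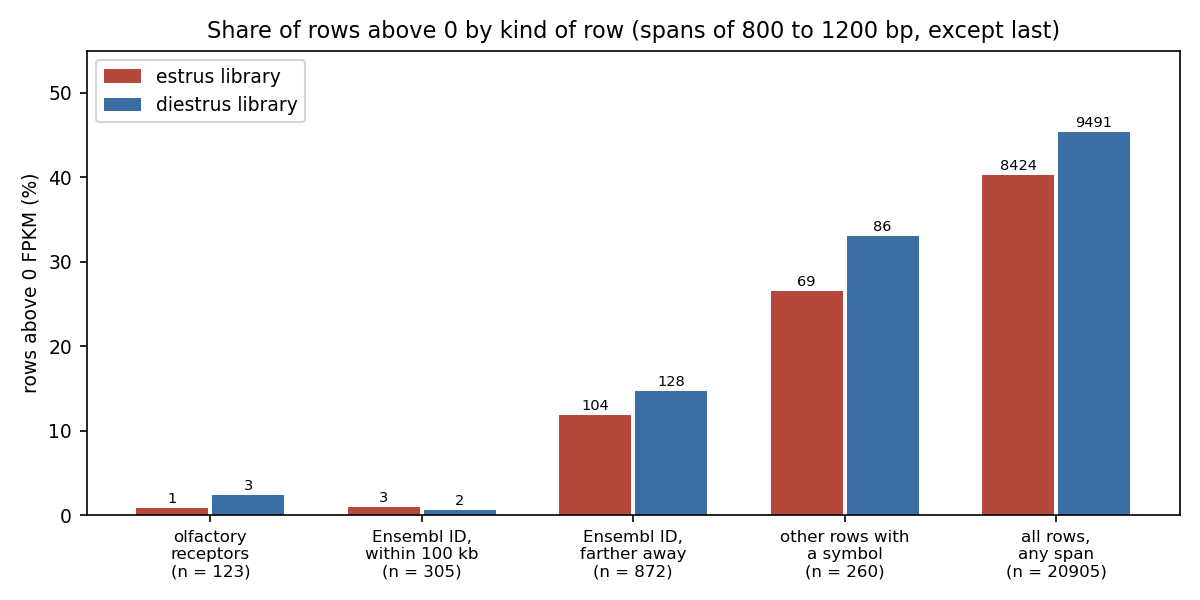
Percent of rows above 0 FPKM by kind of row, estrus library left and diestrus library right in each pair, with the number of rows above 0 over each bar. The receptors (1 and 3 of 123) and the Ensembl rows within 100 kb of them (3 and 2 of 305) are lowest, and other rows with a symbol reach 26.5% in estrus and 33.1% in diestrus.

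The symbols of the 134 rows put them in 16 families on 15 chromosomes. Class I receptors, families 51, 52 and 56 here, are the older class, known from fish as well, and mammals keep them in a single cluster. Among the members 21 were class I, all on chromosome 15, and 113 were class II, of which 27 were also on that chromosome. Of the class I rows 3 were above 0 in either library, namely OR52B2, OR56A5 and OR51D1. Of the class II rows 1 was, OR13C3, and 112 were listed at 0 in both libraries. Families 2 (22 rows), 10 (16 rows), 4 and 6 (15 rows each) and 5 (14 rows) had no row above 0. The difference between the classes was not tested, and 2 of the 3 class I rows rest on 1 fragment.

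The class I cluster spanned 3.93 Mb from its first to its last receptor and held 165 rows. Besides the 21 receptors it held 135 rows with an Ensembl identifier, of which 131 were at 0 in both libraries. Of all rows with only such an identifier 3866 of 4910 were at 0 in both, and at 800 to 1200 bp 1038 of 1177. The cluster also held 9 other rows with a symbol, of which 7 were at 0 in both, against 6338 of all 15861 such rows. Those 7 include the beta-globin gene HBB and the embryonic globin genes HBE1, HBE2 and HBE4, which lie inside this cluster. TRIM34, an antiviral tripartite motif protein, was the symbol above 0 in both, at 13.6 (estrus) against 13.1 FPKM (diestrus).

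Within 100 kb of the receptors above 0, TRIM68 beside OR51D1 was the only row listed above 0 in the same library. A listed 0 among the neighbours is not read as absence. Around OR52B2 there were 8 rows within 100 kb, and none was above 0 in estrus, where the nearest row above 0 was SMPD1, an acid sphingomyelinase, 219436 bp away. OR52W1, the nearest receptor at 25990 bp and of the same family, was listed at 0 in both libraries. OR56A5 lay 136423 bp from OR52B2 and had no row above 0 in either library among the 6 within 100 kb. OR51D1 lay 10988 bp from TRIM68, a ubiquitin ligase, which was listed at 0 in estrus and at 0.810 FPKM in diestrus. OR13C3 had no row above 0 among the 3 within 100 kb.

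**Figure D3:**
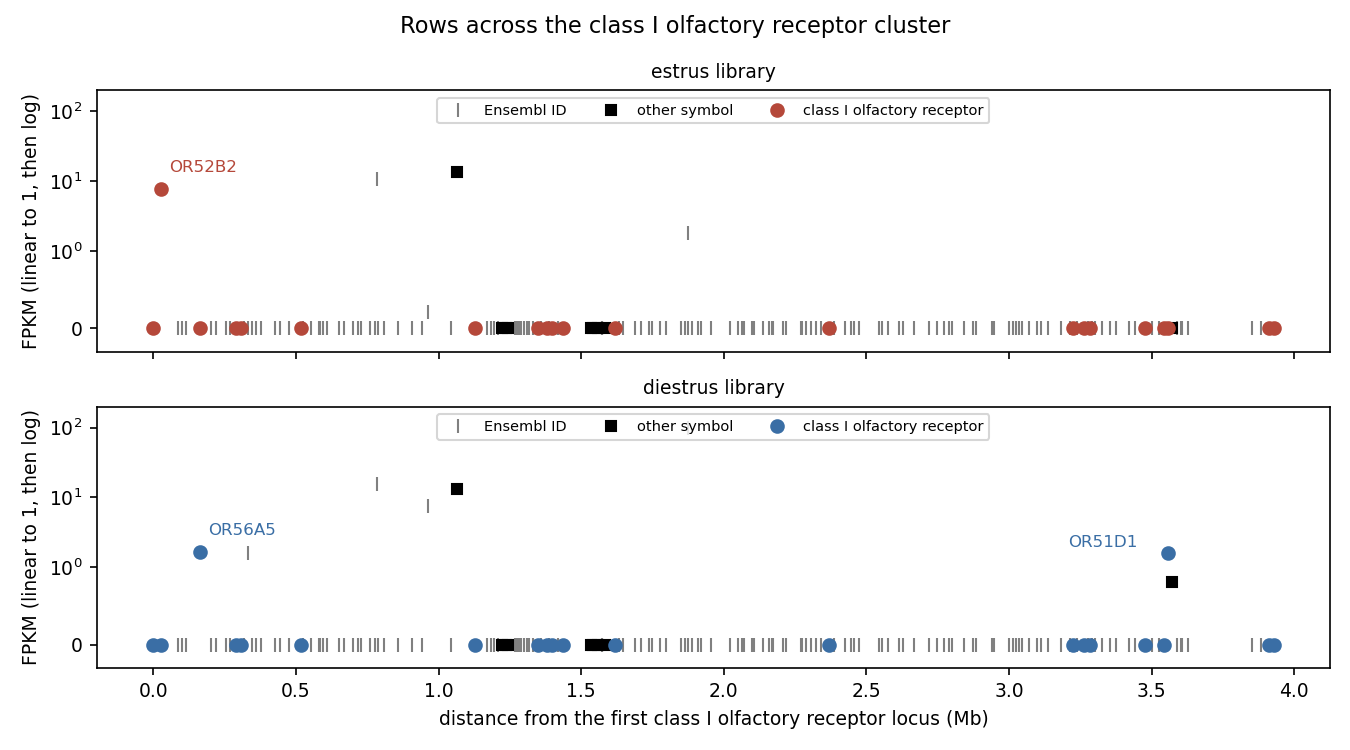
FPKM (linear up to 1, then log) of the 165 rows of the class I cluster against distance in Mb from its first receptor, with the estrus library above and the diestrus library below. Most points lie at 0 in both libraries, OR52B2 stands at 7.79 FPKM in estrus, and OR56A5 and OR51D1 stand at 1.65 and 1.58 FPKM in diestrus.

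Some receptors are known to be transcribed outside the nose, and 5 of them were looked up after the values had been seen. OR51E1 and OR51E2 are known from human prostate, OR2AT4 from human keratinocytes, the mouse counterpart of OR6A2 from macrophages, and OR10J5 from human endothelial cells. All 5 were listed at 0 in both libraries. OR51E1 lies next to OR51D1, 15075 bp away. The 4 rows with a receptor symbol but another description, OR56B4, OR10J1, OR10J3 and OR10H1, were also at 0 in both libraries.

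Of 18 rows of olfactory sensory neurons 3 were above 0 in estrus (16.7%, against 40.3% of all rows) and 6 in diestrus (33.3%, against 45.4% of all rows). The other 11 were at 0 in both, among them the receptor chaperones RTP1 and RTP2 and the channel subunits CNGA4 and CNGB1. CNGA2, the principal channel subunit, was listed at 0 in estrus and stood at 3.55 FPKM in diestrus. The adenylyl cyclase ADCY3 was listed at 0 in estrus and stood at 1.27 FPKM in diestrus. GNAL was listed at 0 in estrus and at 0.0214 FPKM in diestrus. That value is under the worth of 1 diestrus fragment even over the whole GNAL span of 52093 bp. GNAL is thus not read as detected, although the count of 6 includes it. REEP1, a shaper of the endoplasmic reticulum that is used widely outside the nose, had the highest mean of the list, at 6.70 (estrus) against 8.996 FPKM (diestrus). CNGA2 came next, followed by the transcription factor LHX2 at 1.48 against 0.724 FPKM. EBF1, another transcription factor, was listed at 0 in estrus and stood at 1.57 FPKM in diestrus.

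Other sensory families were also mostly listed at 0, on far fewer rows. All 5 rows of olfactory support cells and glands, all 5 trace amine receptors and the pheromone-signalling channel TRPC2 were at 0 in both libraries. No row was described as a vomeronasal receptor. Of 15 taste rows 14 were at 0 in both, and ITPR3, a calcium channel also used in many other cells, was listed at 0 in estrus and stood at 2.99 FPKM in diestrus. These lists and the photoreceptors together had 6 of 44 rows above 0 in either library (13.6%), and 13 of 62 with the olfactory sensory neurons, against 4 of 134 receptor rows (2.99%) and 50.6% of all rows.

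Lists of photoreceptors, testis germ cells and hepatocytes, cells that saliva is not known to hold, were also mostly at 0. For comparison, 40.3% of all rows were above 0 in estrus and 45.4% in diestrus. Of 18 photoreceptor rows 4 were above 0 in estrus and 3 in diestrus, led by the transducin GNAT1 at 16.6 (estrus) against 14.3 FPKM (diestrus), and the disc protein ROM1 at 7.69 against 2.03 FPKM. Of 18 testis rows 3 were above 0 in estrus and 1 in diestrus, led by CABYR, a sperm tail protein, at 0 in estrus and 1.90 FPKM in diestrus. Of 15 hepatocyte rows none was above 0 in estrus and 1 was in diestrus, the apolipoprotein APOB at 0.0921 FPKM. The fibroblast list was above 0 on all 12 rows in both libraries and had medians of 1052 FPKM in estrus against 622 FPKM in diestrus, led by the collagen-binding protein SPARC at 3903 against 3815 FPKM. These lists differ from the receptors in span and in the number of exons, so the shares are set side by side and were not tested.

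**Figure D4:**
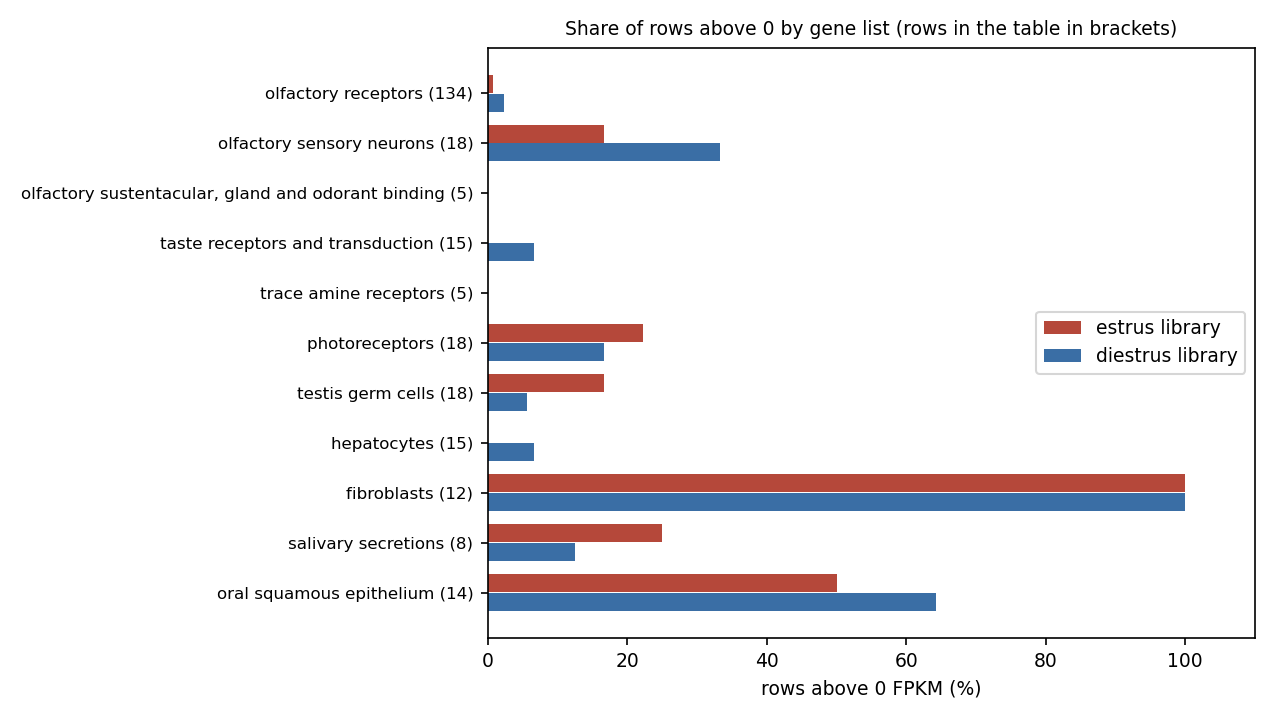
Percent of rows above 0 FPKM for the olfactory receptors and 10 gene lists, estrus library above diestrus library in each pair, with the number of rows of each list in brackets. The receptors stand at 0.746% in estrus and 2.24% in diestrus, and the 12 fibroblast rows at 100% in both.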

How the data were processed

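Salivary cell-free total RNA was sequenced from 1 estrus and 1 diestrus sample, grouped by their labels. An Illumina TruSeq kit for RNA was used, per the labels' protocols. TopHat, Bowtie, Cufflinks and Cuffdiff are named, per the submitters' processing notes, and neither their versions nor the genome build are given in the sources used here. The FPKM values were made and deposited by the authors. The authors' deposited log2 fold change was diestrus over estrus, as checked on all 7344 rows above 0 in both libraries, within 0.001. The deposited p-value and the test score (test statistic) are the authors' own and were not recomputed; the score was not used.

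Members are rows whose description contains "lfactory receptor". Positions are those of the table, whose chromosomes are numbered as in cattle, with starts read as counting from 0 and printed counting from 1. Mapping to another species' genome and near-identical copies can move a receptor's FPKM. None of the 134 symbols was matched in the buffalo RefSeq table (NDDB_SH_1), and no sequences were used. The worth of 1 fragment and the length taken off the span were those at which most loci lay within 0.2% of 1, 2 or 3 fragments, 38 in estrus and 103 in diestrus, against medians of 0 and 2 at other settings. This fit was first checked on inputs of known step. Named genes were all receptor rows above 0, the 3 longest spans and up to 4 rows of highest mean FPKM per list; any other gene named was chosen with its values in view, as a neighbour or as a list member that a count singles out. Members and lists were chosen with earlier results of these data known, and the salivary and oral lists were added after the values were seen. Python 3.11.15, pandas 2.3.3, NumPy 2.4.6 and SciPy 1.17.1 were used.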

Additional observations from a re-analysis of the deposited data

How the results depend on the processing

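The counts of receptor rows above 0 stayed at 1 in estrus and 3 in diestrus under all 5 alternatives, which added rows by symbol, left out pseudogenes, long spans or shared loci, or asked for at least the worth of 1 fragment, less 1%. The rows that these alternatives added or left out were all at 0, so those changes could not move the counts. With a threshold of 10 FPKM both counts became 0. The 4 rows past 2-fold became 0 with a pseudocount of 10 FPKM, 1 at 4-fold (OR52B2) and 1 where the mean had to reach 1 FPKM. Of the receptor rows only OR52B2 passed that filter, through its estrus value, so nothing is read from that count. Without the 10 highest rows in the total, the receptors held 0.00121% of estrus FPKM, because the total was smaller. With the whole span in place of the effective length, an alternative chosen after seeing the data, 0 of 4 values lay on whole fragments in place of 3, and OR52B2 came to 32.8 fragments. With the other library's length it came to 26.6. No paired analysis was possible because each stage has 1 library and no test was made; for the same reason no replicate could be left out. Depth limits the values: in diestrus 1 fragment is worth more than 1 FPKM at a receptor locus of median span.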

Other observations

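Among the 305 rows with only an Ensembl identifier that lie within 100 kb of a receptor and span 800 to 1200 bp, 2 stood above 0 in both libraries. ENSBTAG00000022372 on chromosome 29 stood at 79.5 (estrus) against 44.5 FPKM (diestrus), and ENSBTAG00000046910 on chromosome 4 at 9.09 (estrus) against 16.98 FPKM (diestrus). Inside the class I cluster, and farther than 100 kb from any receptor row, ENSBTAG00000047356 (1004 bp) stood at 1.81 (estrus) against 97.8 FPKM (diestrus). ENSBTAG00000006815 (966 bp), placed likewise, stood at 10.6 (estrus) against 15.8 FPKM (diestrus). The longer ENSBTAG00000038536 (17245 bp), also placed so, stood at 0.209 (estrus) against 7.61 FPKM (diestrus). The table gives these loci no gene name, and what the reads under them come from was not checked.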
